A study of Mus musculus with 10 samples.

Results

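The clustered replication-dependent histone genes are the 67 of 21937 rows of the deposited mouse embryonic stem (ES) cell table whose symbol starts with Hist1h, Hist2h, Hist3h or Hist4h. By type they are 6 genes for the linker histone H1, 18 for H2A, 19 for H2B, 12 for H3 and 12 for H4. By locus 53 lie in the Hist1 cluster on mouse chromosome 13, 10 in Hist2 on chromosome 3, 3 in Hist3 on chromosome 11, and 1, Hist4h4, on chromosome 6. The genes were chosen by name and not by their values. Total RNA is the stated material. Whether it was selected for poly(A) or depleted of ribosomal RNA before sequencing is not given in the sources used here. Of the 67, 56 were under 1 RPKM (reads scaled by transcript length and library total) in every library, and 11 members carried most of what could be measured.

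The study profiled total RNA in 10 libraries of C57BL/6 mouse ES cells, 1 library per condition and day. In SFEB culture, serum-free floating aggregates that turn into neuroectoderm, there were wild-type (WT) cells, Tet3 knockout (KO) cells, and Tet3 KO cells with Dkk, a secreted Wnt inhibitor, each on days 6 and 10. In medium containing fetal bovine serum (FBS), which does not permit neural differentiation, there were control and Tet3-overexpressing cells on days 4 and 7. Tet3 is a dioxygenase that oxidises 5-methylcytosine in DNA, and the knockout was made by excising a floxed exon with transiently expressed Cre. No further line of any genotype is named in the labels, so line and genotype cannot be told apart.

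Replication-dependent histone genes are switched on in S phase, when new DNA has to be packed into nucleosomes, through NPAT at the histone gene clusters. Their mRNAs are unusual in having no poly(A) tail: they end just past a short stem-loop, which is bound by the stem-loop binding protein SLBP and cut with the help of the U7 snRNP. Once replication stops the mRNAs are degraded, and in cells that no longer divide the supply of histones comes from replication-independent variant genes such as H3f3a, H3f3b and H2afz, whose mRNAs are polyadenylated. A few clustered genes are described as also making polyadenylated transcripts that read on past the stem-loop.

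The stem-loop is the signature of the family, and it is shown here for the member with the highest mean level of each histone type. It was found by its shape, 6 paired bases starting with GG on each side of a 4-base loop after the stop codon, in 45 of the 67 GENCODE vM21 transcript models (GRCm38). Capitals mark the paired stem.
Hist3h2ba: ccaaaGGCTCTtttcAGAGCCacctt
Hist3h2a: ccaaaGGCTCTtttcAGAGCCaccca
Hist1h1c: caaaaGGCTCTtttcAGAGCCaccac
Hist1h3c: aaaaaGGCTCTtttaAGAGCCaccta
Hist1h4i: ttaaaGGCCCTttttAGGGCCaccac
The 2 Hist3 genes and Hist1h1c carry the same 16 bases of stem and loop, a form found in 26 members. Hist1h3c belongs to a group of 6 that differs in the loop. Hist1h4i belongs to a group of 2 with another stem and another loop. That stem also occurs in other H4 members, with different loops. In the other 22 members the model holds no stem-loop of this shape, which says nothing about the gene itself. Among the 22 are Hist2h2be, Hist1h2bc and Hist1h2af, which are named in the day comparison below. The annotated Hist3h2ba model runs on for 169 bases after the stem-loop and that of Hist3h2a for 1643 bases, and both have an AATAAA polyadenylation signal within 40 bases of the end. Neither feature is particular to these genes. In 23 members the model goes on for 100 bases or more, and 2 of them were at 0 in every library. AATAAA near the end is in 11 members, 2 of them at 0 in every library and 4 reaching 1 RPKM in a library. Of the 56 without it, 8 were at 0 in every library and 7 reached 1 RPKM. A link to the level was not tested. The Hist1h1c model runs on for 840 bases and also has AATAAA. The shape of the model is annotation and not a measurement of these libraries.

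Of the 670 member values (67 genes in 10 libraries), 53.1% were 0, against 27.9% of all values in the table. In 10 members, or 14.9%, the value was 0 in all 10 libraries, against 17.3% of all genes, and in another 10 it was above 0 in all 10. Members reaching 1 RPKM in at least 1 library numbered 11, or 16.4%, against 62.7% of all genes. Only Hist1h4i and Hist3h2ba stayed at 1 RPKM or more in all 10 libraries. The median of the members' mean levels was 0.072 RPKM, against 1.95 RPKM over all genes. Estimated library totals ran from 10100000 to 11200000 reads in 5 SFEB libraries, were 37300000 in KO with Dkk on day 10, and ran from 17300000 to 43900000 in FBS. At the shallowest total 1 read on a member of median length was worth 0.211 RPKM, and the upper limit that a count of 0 allows (3 reads) was 0.633 RPKM. At the deepest total these figures were 0.0486 and 0.146 RPKM. A listed 0 thus means that no read was counted for that member, and not that its mRNA was absent. For members with near-identical copies, depth and the handling of reads with several matches cannot be told apart. In 42 members there were never more than 5 estimated reads. Of 12 other small RNAs without a poly(A) tail in the table, 5 were under 1 RPKM in every library, among them Rpph1, the RNase P RNA, at 0 throughout, and Terc, the telomerase RNA, at 0.00 to 0.57 RPKM. The other 7 reached 1 RPKM in a library. Scarna9, one of these, was above 0 in 9 libraries and reached 13.82 RPKM. Whether recovery of RNA without a tail set the members' levels was not tested.

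**Figure D1:**
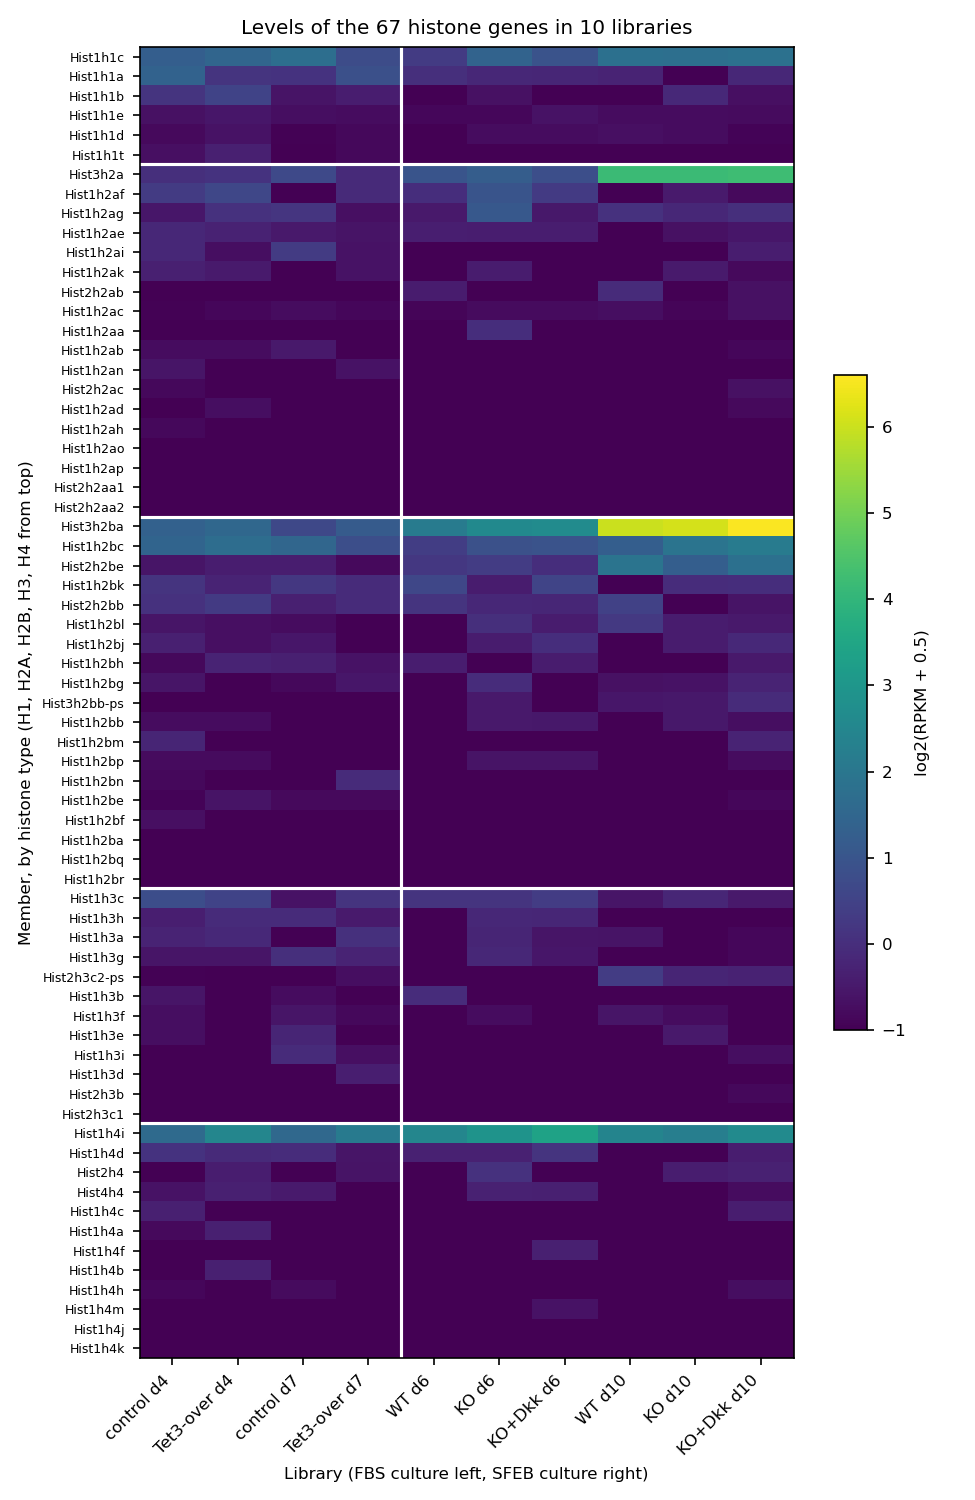
Heat map of the 67 members (rows, grouped by histone type from H1 at the top to H4, each sorted by mean level) in the 10 libraries (columns), coloured by log2(RPKM + 0.5). Most rows stay at the floor of the scale, and the 2 Hist3 genes are the rows that turn bright in the 3 day 10 libraries.

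The levels had no replicate, so the other libraries of a culture are the only check on each value. The labelled identity was compared with marker sums. The 8 ES cell markers summed to 921 to 3661 RPKM in the FBS libraries and to 17.6 to 87.4 RPKM in the SFEB libraries, so the label "embryonic stem cells" names the source and not the state of the SFEB cells. Tet3 stood at 0.96 and 5.87 RPKM in control and at 12.5 and 14.1 RPKM in Tet3-overexpressing cells on days 4 and 7. In SFEB, Tet3 was 8.11 RPKM in WT, 6.59 in KO and 7.64 in KO with Dkk at day 6, and 10.2, 14.3 and 13.1 on day 10. A whole-gene value does not check the removal of 1 exon.

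Among the linker histone genes, Hist1h1c was the highest, with a mean of 2.16 RPKM. This gene, one of the somatic H1 genes, had 1.89 RPKM in control and 2.29 in Tet3-overexpressing cells on day 4 and 2.86 and 1.21 on day 7. In SFEB it had 0.75 in WT, 2.17 in KO and 1.44 in KO with Dkk at day 6, and 2.99, 2.93 and 3.09 RPKM on day 10. All 3 day 10 values lay above all 3 day 6 values. Hist1h1a ranged from 0 to 2.13 RPKM, highest in control cells on day 4, and Hist1h1b from 0 to 0.93. Hist1h1e stayed between 0.05 and 0.19 RPKM. Hist1h1t, the testis H1 gene, was at 0.29 RPKM or less, and 7 of its 10 values were 0.

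Among the H2A genes, which encode a core histone paired with H2B, Hist3h2a alone passed 2 RPKM. It was listed at 0.52 RPKM in control and 0.58 in Tet3-overexpressing cells on day 4, and at 1.10 and 0.43 on day 7. In SFEB it was 1.48 in WT, 1.85 in KO and 1.27 in KO with Dkk at day 6, and 17.55, 17.55 and 18.58 RPKM on day 10. The day 10 values were close to each other and far above the other 7. Hist1h2af ranged from 0 to 1.48, Hist1h2ag from 0.12 to 1.64, and Hist1h2ae from 0 to 0.39 RPKM. Hist1h2ac, listed among genes with described polyadenylated transcripts, stayed at 0.02 to 0.14 RPKM. Hist2h2aa1 and Hist2h2aa2, near-identical copies, were at 0 in all libraries. Hist1h2aa, known from testis, was above 0 in KO on day 6 alone, at 0.50 RPKM, which was 2 estimated reads.

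Among the H2B genes, Hist3h2ba was the highest member of the whole family. It had 2.09 RPKM in control and 2.38 in Tet3-overexpressing cells on day 4, and 1.06 and 1.75 on day 7. In SFEB it had 3.95 in WT, 5.62 in KO and 5.90 in KO with Dkk at day 6, and 63.57, 68.85 and 93.23 RPKM on day 10. Each SFEB library stood above each FBS library, and each day 10 library far above day 6. Hist2h2be had 0.07 to 0.27 RPKM in FBS, 0.67, 0.78 and 0.50 in WT, KO and KO with Dkk at day 6, and 3.33, 1.89 and 3.02 on day 10. On FBS day 4 Hist1h2bc had 2.21 RPKM in control and 2.82 with Tet3 overexpression, and on day 7 it had 2.36 and 1.26. On SFEB day 6 it had 0.81, 1.33 and 1.42 in WT, KO and KO with Dkk, and on day 10 1.93, 3.26 and 4.02 RPKM. For Hist2h2be and Hist1h2bc too, the lowest day 10 value lay above the highest day 6 value, but the FBS values of Hist1h2bc covered much of the same range. Hist1h2bk ranged from 0 to 1.03 RPKM. Hist1h2be reached 0.16 RPKM at most. Hist1h2ba, the testis H2B gene, was at 0 in all 10 libraries.

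The H3 genes, which encode the core histone with the most studied tail modifications, stayed low. Hist1h3c, the highest, had 1.23 RPKM in control and 0.93 in Tet3-overexpressing cells on day 4, and 0.15 and 0.60 on day 7. In SFEB it had 0.61 in WT, 0.60 in KO and 0.78 in KO with Dkk at day 6, and 0.18, 0.38 and 0.22 on day 10. The later day was lower in each of the 5 arms, though on SFEB day 10 these were 1 to 4 estimated reads. Hist1h3h, Hist1h3a and Hist1h3g did not pass 0.54 RPKM. Hist2h3c2-ps, which carries a pseudogene symbol but is annotated as protein coding in GENCODE vM21, was singled out after its values were seen. It was at 0 in the 3 day 6 libraries and at 0.78, 0.36 and 0.32 RPKM in WT, KO and KO with Dkk on day 10, from 6, 3 and 8 estimated reads.

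Among the H4 genes, Hist1h4i held 69.7% to 100% of the summed level of a library, the lowest share in control cells on day 4. It had 2.62 RPKM in control and 5.08 in Tet3-overexpressing cells on day 4, and 2.45 and 3.83 on day 7. In SFEB it had 5.10 in WT, 7.02 in KO and 9.95 in KO with Dkk at day 6, and 4.91, 4.26 and 5.75 on day 10. It did not show the day 10 level of the Hist3 genes. Hist1h4d reached 0.60 RPKM at most, Hist2h4 0.56 and Hist4h4 0.31.

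Summed over the 67 members, the level was 15.9 to 23.6 RPKM in the 4 FBS libraries. In SFEB it was 17.9 in WT, 29.2 in KO and 28.0 in KO with Dkk at day 6, and 99.2, 103.2 and 134.7 RPKM on day 10. Hist3h2a and Hist3h2ba together held 12.3% to 13.7% of the sum in FBS, 25.6% to 30.3% on SFEB day 6 and 81.8% to 83.7% on day 10. Without them the sum was 12.5, 21.7 and 20.8 RPKM in WT, KO and KO with Dkk at day 6, and 18.1, 16.8 and 22.9 on day 10. Most of the difference between the days thus lay in 1 H2A and 1 H2B gene of the Hist3 locus. H2B supplied 30.4% to 33.5% of the sum in FBS and 71.3% to 76.6% on SFEB day 10, while H3 held 1.31% or less there.

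**Figure D2:**
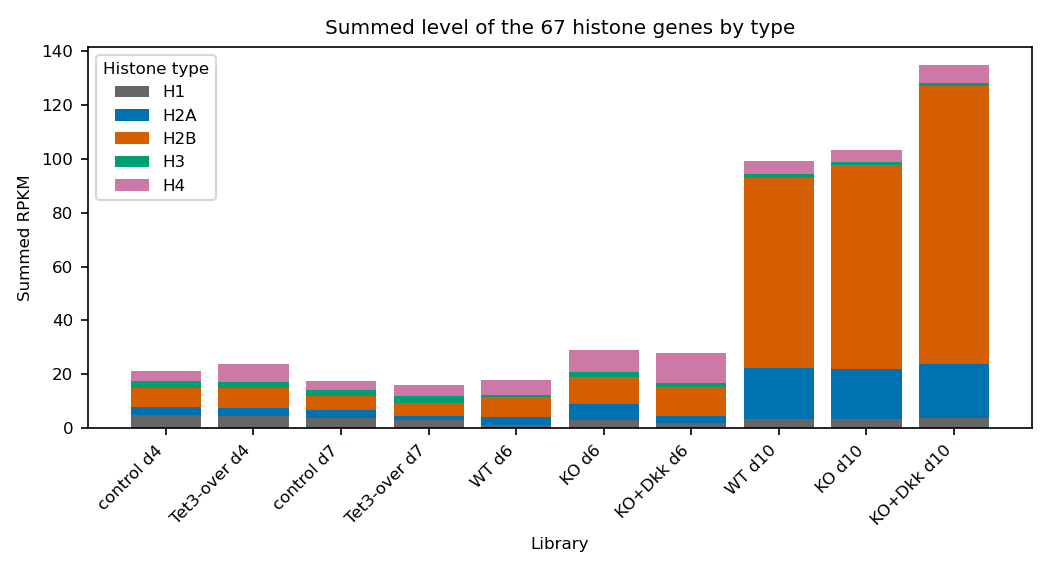
Stacked bars of summed RPKM of the members in each of the 10 libraries, coloured by histone type, 1 library per bar. The sum is 29.2 RPKM or lower in the first 7 libraries and 99.2 to 134.7 RPKM in the 3 day 10 libraries, where the H2B block is the tallest.

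The day comparison asked how the members differed between neuroectoderm of days 6 and 10. limma was fitted to log2(RPKM + 0.5) of the 13757 genes that reached 1 RPKM in any library, with the arm and the day of each culture as terms. Its error is the spread left when the day difference is compared across arms (3 residual degrees of freedom), not a spread between replicate cultures. Of the 67 members, 11 passed that filter and 4 were called higher and 1 lower on day 10. Over all genes 46.3% were called, 28.2% higher and 18.1% lower, so 5 of 11 is near the background. Hist2h2be passed the filter through its day 10 values alone, so the number of members called carries no weight of its own. The median difference was -0.05 for the 11 members and 0.11 for all genes. The 2 Hist3 genes had the largest differences of the 11.

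Hist3h2ba rose by a log2 difference of 3.74 (SE 0.16, limma adjusted p = 0.0001006), the 66th largest rise of 13757 genes. Its ratio of day 10 to day 6 was 16.1 in WT (95% counting interval 10.3 to 28.2), 12.3 in KO (8.38 to 19.4) and 15.8 in KO with Dkk (10.8 to 23.4). These rested on 329, 347 and 1607 estimated reads on day 10 and 18, 26 and 29 on day 6. Hist3h2a rose by 3.19 (SE 0.23, limma adjusted p = 0.0002914), rank 153. Its ratios were 11.9 in WT (5.51 to 26.8), 9.49 in KO (4.73 to 19.5) and 14.6 in KO with Dkk (6.80 to 35.5). The intervals of the 3 arms overlapped for each gene. Counting intervals (95%) use reads estimated at the shortest annotated length and cover counting error only. They are Clopper-Pearson intervals for single genes and a normal approximation of the log2 ratio for summed levels.

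Hist2h2be, an H2B gene of the Hist2 cluster, rose by 1.48 (SE 0.28, limma adjusted p = 0.00596). Hist1h2bc, an H2B gene of the Hist1 cluster, rose by 1.06 (SE 0.25, limma adjusted p = 0.0128), a call lost when any of the 6 SFEB libraries was left out (limma adjusted p = 0.0514 to 0.0887). Hist1h2af, an H2A gene, fell by 1.18 (SE 0.26, limma adjusted p = 0.00969), from 2, 6 and 3 estimated reads in WT, KO and KO with Dkk on day 6 to 0, 1 and 1 on day 10. Its call was lost without KO on day 10 or KO with Dkk on either day (limma adjusted p = 0.0502 to 0.0534), and that of Hist2h2be without KO with Dkk on day 6 or day 10 (0.0509 and 0.0524). Hist1h1c had a difference of 0.91 that missed the threshold (limma adjusted p = 0.0523), and Hist1h4i one of -0.48 (limma adjusted p = 0.0853). The other 4 members tested, Hist1h1a, Hist1h2ag, Hist1h2bk and Hist1h3c, had differences of -0.62 to -0.05 with limma adjusted p of 0.121 to 0.938.

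**Figure D3:**
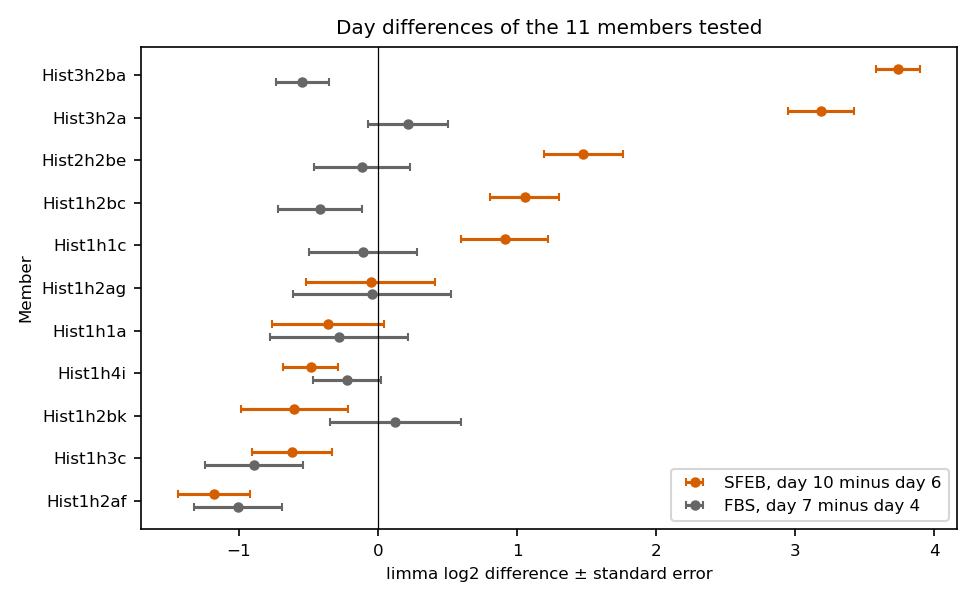
limma log2 differences (points) with standard errors (bars) of the 11 members tested, between SFEB days 10 and 6 and between FBS days 7 and 4. Hist3h2ba at 3.74 and Hist3h2a at 3.19 lie far to the right of the other members in SFEB, and no FBS difference was called.

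Members past 2-fold were counted pair by pair among the 9 that reached 1 RPKM in any SFEB library. From day 6 to day 10, 4 were higher and 2 lower in WT (24.9% of all genes past 2-fold), 3 higher and 2 lower in KO (29.1%), and 4 higher and 1 lower in KO with Dkk (24.4%). Hist3h2ba and Hist3h2a were higher and Hist1h2af lower in all 3 arms. Within SFEB, Hist2h2be reached 1 RPKM on day 10 alone, Hist1h2af and Hist1h2ag in KO on day 6 alone and Hist1h2bk in WT on day 6 alone. These 4 entered through their high values, so nothing is read from the counts. With TPM scaling they were 12, 11 and 10 of 22, against 28.7%, 32.3% and 27.2% of all genes.

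Of the 10 members listed as having described polyadenylated transcripts, 5 passed the filter and 4 rose: Hist3h2ba, Hist3h2a, Hist2h2be and Hist1h2bc. The fifth, Hist1h1c, was the one just over the threshold. The other 5, Hist1h2be, Hist1h2ac, Hist2h2aa1, Hist2h2aa2 and Hist4h4, were under 1 RPKM in every library. Over all genes 28.2% were called higher. Hist2h2be passed the filter through day 10 alone, and the Hist1h2bc call was lost without any 1 of the SFEB libraries, so the count is a description. The list was drawn up with earlier results of these data known, so it is no independent evidence.

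**Figure D4:**
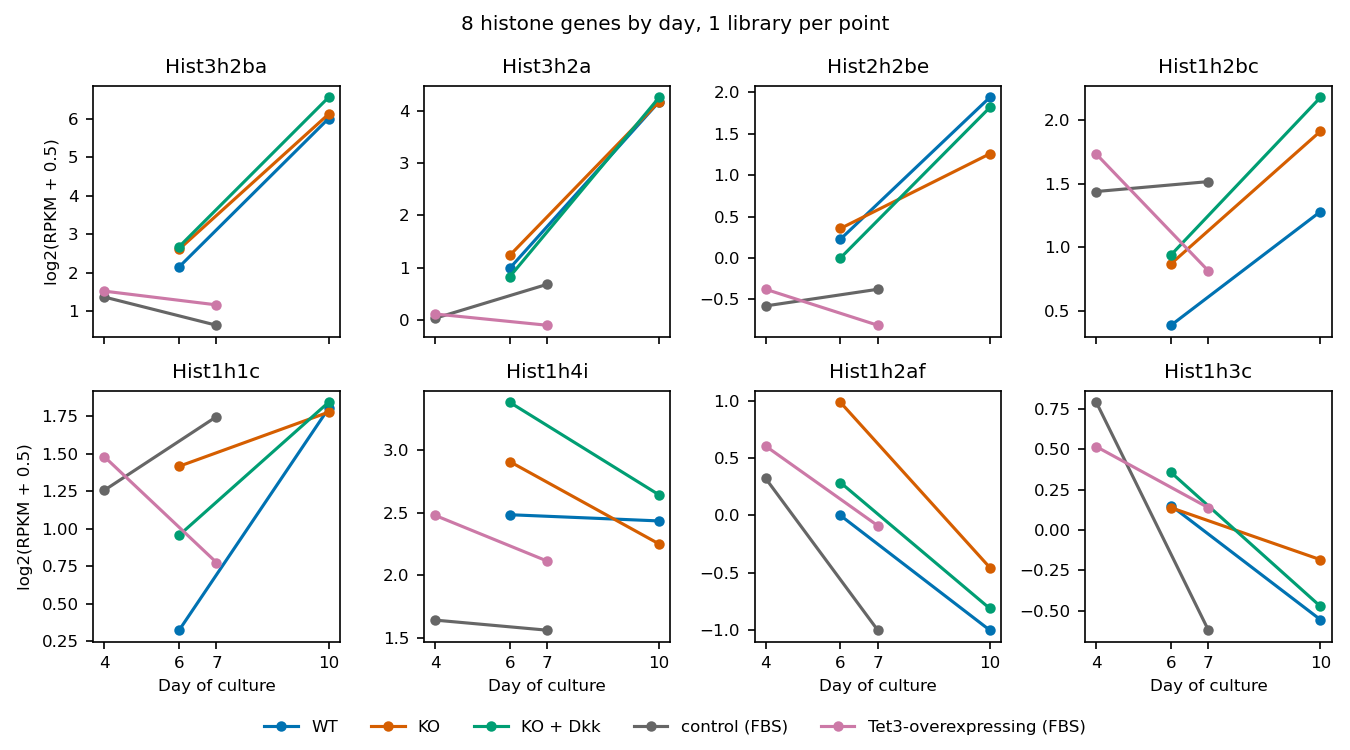
log2(RPKM + 0.5) of 8 members against the day of culture, 1 point per library, with lines joining the 2 days of an arm. Hist3h2ba and Hist3h2a climb in all 3 SFEB arms, while Hist1h2af and Hist1h3c are lower on the later day in all 5 arms.

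Markers of cell types also differed between the same SFEB libraries. The counts below stand against 28.2% of all genes called higher and 18.1% called lower on day 10. Counts near these shares are not read as shifts of a set. All 7 neuron markers measured were called higher on day 10, and their sum went from 73.3 to 160 RPKM on day 6 to 1264 to 1585 RPKM on day 10, with none at 0. Tubb3, a neuronal tubulin, was 93.35, 33.96 and 45.65 RPKM in WT, KO and KO with Dkk at day 6 and 615.65, 599.43 and 884.92 on day 10. Of 34 S phase genes, 30 were called lower and none higher, with a median difference of -1.14. Of 20 G2 and mitosis genes 19 were called lower (median -0.96), and of 14 genes linked to cell cycle exit 9 were called higher (median 1.25). Of 8 neural progenitor markers 3 (Fabp7, Hes5 and Lhx2) were called higher and 2 (Sox1 and Sox3) lower. The 8 had sums of 220 to 390 RPKM on day 6 and 851 to 1030 RPKM on day 10. Most of the later sums was Fabp7, which ranged over the arms from 58.76 to 137.47 RPKM at day 6 and from 623.88 to 759.45 RPKM at day 10. The higher sum thus does not describe the 8 markers as a set. Of 8 fibroblast markers 4 were called higher, with sums of 5.43 to 16.4 and 42.4 to 629 RPKM. The part of these shifts in the members' values was not tested. In bulk RNA, fewer cells of a type and less RNA per cell cannot be told apart.

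The 2 genes that moved together lie in the Hist3 cluster with Hist3h2bb-ps between them, and their promoters are shown because of that. The sequences are from RefSeq on GRCm38.p6, 250 bases before to 50 after the annotated start; capitals mark CCAAT boxes, the TATA box letters TATAAA and the octamer ATTTGCAT on either strand. Hist3h2ba is at chr11:58948661-58948960 and Hist3h2a at chr11:58954435-58954734, both on the plus strand.
Hist3h2ba: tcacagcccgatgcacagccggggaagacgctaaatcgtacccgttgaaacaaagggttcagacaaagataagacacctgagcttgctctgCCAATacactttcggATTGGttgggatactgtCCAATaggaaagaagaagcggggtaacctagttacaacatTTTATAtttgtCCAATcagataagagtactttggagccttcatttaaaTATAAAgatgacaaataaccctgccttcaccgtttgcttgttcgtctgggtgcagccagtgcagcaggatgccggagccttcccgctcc
Hist3h2a: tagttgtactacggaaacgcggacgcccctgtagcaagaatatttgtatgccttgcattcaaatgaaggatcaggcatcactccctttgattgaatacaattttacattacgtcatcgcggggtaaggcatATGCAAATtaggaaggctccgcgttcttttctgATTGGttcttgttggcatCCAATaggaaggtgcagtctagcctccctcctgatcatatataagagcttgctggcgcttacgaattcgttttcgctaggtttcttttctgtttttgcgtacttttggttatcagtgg
Both hold CCAAT, the box bound by NF-Y. Hist3h2ba has TATAAA, and Hist3h2a has the octamer ATTTGCAT, read on the minus strand, which is bound by Oct1 in H2B promoters. Over the 61 promoters of 60 members in RefSeq, CCAAT was in 53, TATAAA in 34 and the octamer in 14. The shares in all 32851 promoters were 37.4%, 13.6% and 1.74%. CCAAT was in 3 of 11 H4 promoters and in every promoter of the other types, and the octamer in 7 of 17 H2A and 7 of 17 H2B promoters and in none of H1, H3 or H4. A match is a description of letters and not of binding.

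Other genes within 50000 bases on chromosome 11 were also read. Trim17, whose first exon overlaps Hist3h2a on the same strand, was at 0.52 RPKM or less in all 10 libraries. Rnf187, a ubiquitin ligase gene, was called higher with a difference of 0.71 (limma adjusted p = 0.00519). Trim11 had -0.46 (limma adjusted p = 0.0596) and Zfp39 0.20 (limma adjusted p = 0.509). The third Hist3 gene, Hist3h2bb-ps, annotated as a pseudogene, reached 0.46 RPKM. How reads in the overlap of Hist3h2a and Trim17 were assigned is not given in the sources used here.

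In the FBS culture no member was called between days 4 and 7 (limma, 0 of 11; 0.451% of all genes; 3 members at unadjusted p under 0.05). Hist3h2ba had a difference of -0.54 (limma adjusted p = 0.228) and Hist3h2a 0.22 (limma adjusted p = 0.715). Among 8 members that reached 1 RPKM in any FBS library, 3 were past 2-fold in control, Hist1h1a, Hist1h2af and Hist1h3c, all lower on day 7 (20.2% of all genes), and 0 in Tet3-overexpressing cells (4.69%). Within FBS, Hist1h3c reached 1 RPKM in control on day 4 alone, so it entered through its high value, and Hist1h2af did so in Tet3-overexpressing cells on day 4 alone. With TPM scaling the counts were 5 of 16 (23.3%) and 2 of 16 (6.54%). The summed level was 21.2 RPKM on day 4 and 17.5 on day 7 in control, and 23.6 and 15.9 in Tet3-overexpressing cells, log2 ratios of -0.27 (95% counting interval -0.49 to -0.06) and -0.57 (-0.86 to -0.27). The control library of day 7 stood apart in blood and endothelium markers, which summed to 6267 RPKM there and to 2.81 to 37.5 RPKM in the other 9 libraries. Their part in the control values was not tested.

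The knockout comparison asked whether loss of Tet3 altered the members in differentiating cells. In the KO, Dkk and overexpression comparisons, limma averages over the 2 days of a culture, which stand in for replicates. A difference present on 1 day only is thus partly averaged away and partly counted as error. No member was called between KO and WT (limma, 0 of 11; 0.211% of all genes; 1 member, Hist1h2af, at unadjusted p under 0.05). Hist3h2ba had a difference of 0.29 (SE 0.19, limma adjusted p = 0.536) and Hist3h2a 0.12 (SE 0.29, limma adjusted p = 0.881). The summed level was 29.2 RPKM in KO and 17.9 in WT on day 6, a log2 ratio of 0.70 (95% counting interval 0.32 to 1.09), and 103.2 and 99.2 on day 10, a ratio of 0.06 (-0.11 to 0.23). The day 6 difference was beyond counting error for those 2 libraries, but the day 10 ratio was within it. Mesoderm markers also stood apart on day 6, at a sum of 280 RPKM in KO and 6.23 in WT, and their part was not tested. Past 2-fold on day 6 were 3 of 9 members (7.06% of all genes): Hist1h1c and Hist1h2ag higher and Hist1h2bk lower in KO. In SFEB Hist1h2ag reached 1 RPKM in KO on day 6 alone and Hist1h2bk in WT on day 6 alone, so both entered the count through the library where they were high, and nothing is read from the count. With TPM scaling it was 11 of 22 (10.1% of all genes). Hist1h1c had 16 estimated reads in KO and 5 in WT, a ratio of 2.89 (95% counting interval 1.11 to 11.1), and on day 10 its ratio was 0.98 (0.53 to 1.82). Hist1h2ag had 8 estimated reads against 1. On day 10, 0 of 9 were past 2-fold (10.2%), and 8 of 22 with TPM scaling (13.1%).

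Dkk given to the knockout was compared with the knockout alone. No member was called (limma, 0 of 11; 0.131% of all genes; 0 members at unadjusted p under 0.05). On day 6, 1 of 9 members was past 2-fold (5.75% of all genes), Hist1h2ag, lower with Dkk, at 1 estimated read against 8, which had entered through its KO value. On day 10 it was 0 of 9 (6.93%). With TPM scaling the counts were 5 of 22 (8.01%) and 2 of 22 (9.72%). The summed level with Dkk was 28.0 RPKM against 29.2 on day 6, a log2 ratio of -0.06 (95% counting interval -0.40 to 0.28), and 134.7 against 103.2 on day 10, a ratio of 0.38 (0.25 to 0.52). In RPKM, Hist3h2ba made up 24.4 of the 31.5 by which the day 10 sums differed, at 93.23 RPKM with Dkk and 68.85 without, a ratio of 1.35 (1.20 to 1.52). The sum without both Hist3 genes was 22.9 RPKM with Dkk and 16.8 without, a log2 ratio of 0.45 (0.16 to 0.74). Fibroblast markers summed to 61.5 RPKM with Dkk and 629 without, and endoderm markers to 171 and 49.5, and their part was not tested. The library with Dkk on day 10 was also the deepest of the SFEB set, and the spread between replicate cultures is not known.

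Tet3 overexpression was compared with control in FBS. No member was called (limma, 0 of 11; 0.0945% of all genes; 1 member, Hist1h4i, at unadjusted p under 0.05). Hist1h4i had a difference of 0.70 (SE 0.24, limma adjusted p = 0.197), with ratios of 1.94 (95% counting interval 1.26 to 2.99) on day 4 and 1.56 (0.88 to 2.77) on day 7. On day 4, 1 of 8 members was past 2-fold (5.19% of all genes), Hist1h1a, at 0.60 RPKM against 2.13, and on day 7 0 of 8 (18.1%), or 6 of 16 with TPM scaling (21.0%). Summed levels gave log2 ratios of 0.16 (-0.05 to 0.37) and -0.14 (-0.43 to 0.16), within counting error on both days.

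The genes that make and destroy histone mRNA were read in the same libraries. Slbp, which binds the stem-loop, was at 132.47 RPKM in WT, 119.78 in KO and 108.40 in KO with Dkk at day 6 and at 110.57, 66.30 and 79.70 on day 10. It fell by 0.52 (SE 0.13, limma adjusted p = 0.0179), and the day 10 value of WT lay within the day 6 range. Npat, the S phase activator of the clusters, was at 5.72 to 8.93 RPKM in the 10 libraries, with a day 10 difference of -0.28 (limma adjusted p = 0.186). Over all genes 18.1% were called lower and 28.2% higher on day 10, so list counts near these shares are not read as shifts of a set. Of 23 synthesis and processing genes measured, 13 fell and 3 rose on day 10 (median -0.45). Sympk, the scaffold symplekin, fell by 0.88 (limma adjusted p = 0.000919) and Srrt, which links the cap to 3′ processing, fell by 0.71 (limma adjusted p = 0.00307). Lsm11, a U7 snRNP protein, rose by 0.98 (limma adjusted p = 0.00267). Of 17 decay and translation genes 5 fell and 1 rose (median -0.21), with Dcp2, a decapping enzyme, down by a log2 difference of -1.21 (limma adjusted p = 0.0009). Of 26 histone chaperone genes 17 fell and 2 rose (median -0.66), among them Chaf1a, a subunit of the replication-coupled chaperone CAF-1, at -1.30 (limma adjusted p = 0.00045). None of these genes was called in the knockout, Dkk or overexpression comparisons or between FBS days.

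Replication-independent variants had far higher listed RPKM than the clustered genes. The 13 in the table summed to 1463 to 2802 RPKM, against 15.9 to 134.7 RPKM for the 67 members. Variant mRNAs such as those of H3f3a, H3f3b and H2afz are polyadenylated, while replication-dependent histone mRNAs typically have no tail. The split is not clean, since a few clustered genes are described as also making polyadenylated transcripts. The part of RNA recovery in this gap was not tested. Values of members with near-identical copies are also uncertain. The gap is therefore not a measure of how much of each mRNA the cells held. Of 11 tested, 3 were called higher on day 10 and none lower, against 28.2% and 18.1% of all genes. The count of higher calls is thus near the background. The median difference was 0.08 for the 11 variants and 0.11 for all genes. H3f3b, an H3.3 gene, was 276.64, 356.81 and 351.51 RPKM in WT, KO and KO with Dkk at day 6 and 554.80, 529.92 and 595.63 on day 10, a rise of 0.78 (limma adjusted p = 0.00291). H3f3a, the other H3.3 gene, rose by 0.67 (limma adjusted p = 0.0222) and H1f0, the linker histone of cells that stop dividing, rose by 0.84 (limma adjusted p = 0.021). H2afz, the highest variant, had a difference of -0.27 (limma adjusted p = 0.204).

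Members differ in how much of their sequence occurs elsewhere, and this bears on reads that match several genes. Of the 67, 9 shared 90% or more of their 50-base words with genes at other loci, and 6 of the 9 were at 0 in every library. The 12 members sharing under 10% included none at 0 everywhere, and 4 of them reached 1 RPKM. In between, 25 members shared 10% to under 50% (3 at 0, 4 reaching 1 RPKM) and 21 shared 50% to under 90% (1 at 0, 3 reaching 1 RPKM). Hist1h2bq, Hist1h2br and Hist2h2aa2 shared 100% and were listed at 0. Hist3h2a shared 2.0% and Hist3h2ba 22.1%, the latter with a single other gene. Values of members with near-identical copies are uncertain, since the handling of reads with several matches is not given in the sources used here. Many H2A genes also overlap an opposite-strand model, and the strand setting is not given either.

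**Figure D5:**
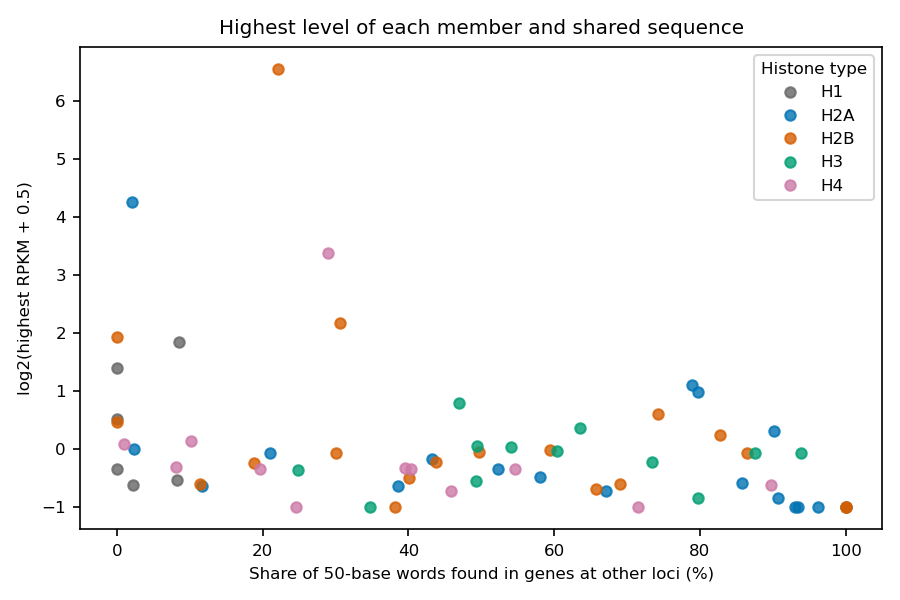
Highest level of each of the 67 members, as log2(RPKM + 0.5), against the share of its 50-base words found in genes at other loci (%), 1 point per gene, coloured by histone type. Of the 9 points at 90% or more, 6 lie at the floor, and the highest 2 points are the Hist3 genes at 2.0% and 22.1%.

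Genes whose levels ran most like the summed histone level over the 10 libraries were taken from 12086 genes with a mean of 1 RPKM or more. The 5 with the highest Pearson r of log2 values were Pnmal2 (r = 0.99), Shox2 (0.99), 2810453I06Rik (0.98), Ntng2 (0.98) and 2410066E13Rik (0.98). Pnmal2 had 0.67 to 2.15 RPKM in the first 7 libraries and 14.13, 18.53 and 25.87 in WT, KO and KO with Dkk on day 10. The libraries share culture and day, and the likeness rests on the 3 day 10 libraries.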

How the data were processed

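The authors deposited RPKM values for 21937 gene symbols in 10 libraries, and the submitters' processing notes name HTSeq and the build mm9. Not given in the sources used here: poly(A) selection or removal of ribosomal RNA, the aligner, the annotation and the treatment of multiply matching reads. All columns matched a library title. The members and gene lists were chosen with earlier results of these data known. Named members were the 4 highest by mean in each histone type, those called or past 2-fold in all pairs of a factor, and those described as polyadenylated or testis genes; other genes were Slbp, Npat and up to 3 called per list and comparison. limma 3.58.1 (R 4.3.3) was fitted to log2(RPKM + 0.5) with arm and day as terms, for genes that reached 1 RPKM in any library, with Benjamini-Hochberg adjustment over all of them and a threshold of 0.05. The fit was also run on simulated data with the same noise spread for every gene. That setting lacks the counting noise of low members and differences of arms between days, so nothing about the members is read from it. Library totals were estimated from RPKM steps, where 65.1% to 75.1% of the low values used lay within 0.15 read of a whole number, and reads were computed at the shortest annotated length. Among low member values that share was 46.2%, so read numbers are approximate. Sequences and lengths came from GENCODE vM21 and RefSeq (GRCm38.p6), another build than mm9. Alternatives changed the pseudocount, filter, scaling and libraries.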

Additional observations from a re-analysis of the deposited data

Results flagged for a closer look

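Hist3h2ba and the summed level of the members went in opposite directions with time in the 2 cultures. Hist3h2ba differed between the later and the earlier day by log2 differences of 3.85, 3.50 and 3.87 in WT, KO and KO with Dkk in SFEB, and of -0.73 in control and -0.36 in Tet3-overexpressing cells in FBS. The mean differences were 3.74 and -0.54, which are 4.29 apart. The summed RPKM gave log2 ratios of 2.47, 1.82 and 2.27 in SFEB and of -0.27 and -0.57 in FBS, with means of 2.19 and -0.42, which are 2.61 apart. The FBS difference of Hist3h2ba was not called (limma adjusted p = 0.228). Hist3h2a and Hist3h2ba held 81.8% to 83.7% of the day 10 sums, so the sum is not a separate result. Without these genes its log2 ratios in SFEB were 0.53 in WT, -0.37 in KO and 0.14 in KO with Dkk. The difference between the cultures was not tested, and the days compared are not the same.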

How the results depend on the processing

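Genes called by limma between KO and WT numbered 29, and 12 with a pseudocount of 0.1, 14 with 1, 2 without a filter and 253 from the SFEB libraries alone. For Dkk they numbered 18, and 6 with a pseudocount of 0.1, 1 without a filter and 86 from SFEB alone. For overexpression they numbered 13, and 47 without a filter and 0 from the FBS libraries alone (1398 at unadjusted p under 0.05). Between FBS days they numbered 62, and 94 with a pseudocount of 0.1, 41 with 1 and 0 from FBS alone (1187 at unadjusted p under 0.05). No member was called by limma in these 4 comparisons under any alternative run. Between SFEB days 6373 genes were called, and 3944 to 4493 with 1 SFEB library left out, an alternative chosen after seeing the data. Members called there numbered 5 (6373 of 13757 genes), 2 with a filter of 5 RPKM (5654 of 10807 genes) and 8 with TPM scaling (6552 of 14819 genes). With 1 library left out they numbered 2 to 4. Calls were this common over all genes, so nothing is read from the counts of members. Hist3h2ba and Hist3h2a were called under all alternatives run.

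The summed log2 ratio of day 10 to day 6 was 1.35 in WT, 0.54 in KO and 0.91 in KO with Dkk without Hist3h2ba. Without both Hist3 genes, an alternative chosen after seeing the data, it was 0.53, -0.37 and 0.14, so the direction in KO turned. Summed ratios stayed inside their counting intervals with TPM and median scaling. TPM scaling moved the median difference of all genes from 0.16 to 0.27 between KO days.

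With TPM scaling the filter and pseudocount are in TPM units, and 22 members were compared in SFEB and 16 in FBS. Members past 2-fold became 11 of KO against WT on day 6 and 8 on day 10, 5 and 2 for Dkk, 6 for overexpression on day 7, 12, 11 and 10 between SFEB days in WT, KO and KO with Dkk, and 5 and 2 between FBS days in control and overexpressing cells. The shares of all genes past 2-fold with TPM were 6.54% to 32.3%. With a pseudocount of 0.1 they became 2 of KO against WT on day 10, 2 for Dkk on day 6, 5 for overexpression on day 7 and 3 between its days. With a pseudocount of 1 they became 1 of KO against WT on day 6, 0 for overexpression on day 4, 3 between KO days and 0 between control days. Without a filter they became 6 and 1 of KO against WT on days 6 and 10, 3 for Dkk on day 6 and 1 for overexpression on day 7. With a filter of 5 RPKM they became 0 in KO against WT and Dkk on day 6, 0 for overexpression on day 4 and between control days, and 2 between SFEB days in each arm. Shares of all genes past 2-fold are not given for the changed pseudocounts and filters, so nothing is read from those counts. Apart from the filters and units, the cause was not tested.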
